A study of Homo sapiens with 15 samples.

Results

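The genes described here encode the subunits of the mitochondrial respiratory chain and ATP synthase that are made from nuclear genes. They were found by symbol alone. A gene of the deposited table was kept when its symbol began with NDUFA, NDUFB, NDUFC, NDUFS, NDUFV, UQCR, COX4I, COX5, COX6, COX7, COX8, SDHA, SDHB, SDHC, SDHD or ATP5, and 4 NDUFAF assembly factors and 5 pseudogenes were then left out. The rule kept 91 of the 23368 genes, and no measured value entered it. Of these, 6 encode no subunit (ATP5J2-PTCD1, NDUFC2-KCTD14, SDHAF1, SDHAF2, ATP5S and ATP5SL), which left 85 subunit genes. A mean normalized count of at least 10 over the 15 libraries was found for 78 subunit genes, and 77 reached that mean in each clone and were tested. The other 8 were COX4I2, COX6A2, COX6B2, COX7A1, COX7B2, COX8C, NDUFA4L2 and ATP5L2.

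RNA was sequenced from 3 clones of metastatic breast cancer cells, WT6, WT10 and MUT3, each grown from a single cell and each carrying a FLAG-tagged RBM47 transgene under a doxycycline-inducible promoter. RBM47 is an RNA-binding protein that acts on pre-mRNA splicing and mRNA stability. WT6 and WT10 cells carry wild type RBM47 and MUT3 cells carry the mutant I281fs, a frameshift that removes the protein from its last RNA recognition motif onward. In cells that were not cloned, the study reported strong mRNA but little protein from this mutant, which it took to be unstable and inactive. The sample labels call all 3 clones MDA231, while the study's methods derive WT6 from CN34-BrM2 and the other clones from 231-BrM2, so a difference between WT6 and the others may also be one between lines. Every clone was left untreated or given doxycycline at 1, 2.5, 5 or 25 ng/ml, with 1 library per clone and dose, so the spread comes from the scatter of the 5 doses around a line and not from replicate cultures. The labels do not give how long the cells were treated.

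The libraries held between 14955172 and 44771871 reads on genes, of which between 148019 and 400186 fell on the 85 subunit genes. A count of 3 reads was worth between 1.19 and 4.09 in the deposited unit, and the lowest value of any tested member was 96.6 (ATP5E in MUT3 cells at 1 ng/ml). This floor covers counting error only. The RBM47 normalized count, from the transgene and the cells' own gene together, was 258, 3137, 8094, 3966 and 10425 in WT6 cells at 0, 1, 2.5, 5 and 25 ng/ml. It was 168, 827, 2822, 8134 and 19877 in WT10 cells and 73.8, 92.1, 336, 949 and 22084 in MUT3 cells. The transgene thus rose with dose in WT10 and MUT3 cells, while in WT6 cells it was lower at 5 than at 2.5 ng/ml. Of the 10 breast and cell line markers listed, 7 passed the filter. VIM ran between 50755 and 104639, and the hormone receptors ESR1 and PGR and the adhesion gene CDH1 did not pass. None of 4 markers of other cell types passed, with CD3E at 0 in every library.

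The respiratory chain moves electrons from NADH and succinate to oxygen at the inner mitochondrial membrane. Complex I takes electrons from NADH and complex II from succinate, complex III passes them from ubiquinol to cytochrome c, and complex IV hands them to oxygen. Complexes I, III and IV pump protons, and complex V, the ATP synthase, uses the returning protons to make ATP. The mitochondrial genome encodes the innermost membrane subunits of all complexes but II, and the nucleus encodes the rest, including every subunit of complex II. The nuclear subunits must be imported and assembled in fixed ratio with those made inside the mitochondrion, and many of their promoters are known to be bound by NRF1, by the ETS factor GABP and by YY1.

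In WT6 cells, nearly all of these subunits rose with doxycycline. Changes were measured as the slope of log2(normalized count + 1) on log2(dose + 1), in one limma fit over all 12644 tested genes, and a gene was called at an adjusted p under 0.05 over all of them. In WT6 cells 70 of the 77 members rose and 1, NDUFS1, fell, where 29.2% of all tested genes rose and 28.3% fell. The median slope of the members was 0.21, against 0.01 over all tested genes. RNA came from whole cultures, so a change in every cell and a change in the share of cells that express a gene cannot be told apart.

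The rise was a step and did not follow the dose evenly. Against untreated WT6 cells, the members had median log2 changes of 0.02, -0.01, 1.03 and 0.79 in order of rising dose. Of the 77 members, 74 were higher at both 5 and 25 ng/ml than at every lower dose, which is 96.1% of them, while 34.1% of all tested genes had that order. The level at 5 ng/ml was above that at 25 ng/ml for 69 members (89.6%, against 51.9% of all genes), and only 8 members (10.4%, against 30.0%) had their highest value at 25 ng/ml. The 85 subunit genes, tested or not, took between 0.926% and 0.947% of the reads on genes in the 3 WT6 libraries of lower dose. They took 1.53% and 1.42% in those of 5 and 25 ng/ml. The RBM47 normalized count did not make this step, since at 5 ng/ml it was below that at 2.5 ng/ml. When the WT6 libraries at 5 and 25 ng/ml were left out, a choice made after their values were seen, SDHD was the 1 member that still rose in WT6 cells, where 1.03% of all tested genes rose.

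**Figure D1:**
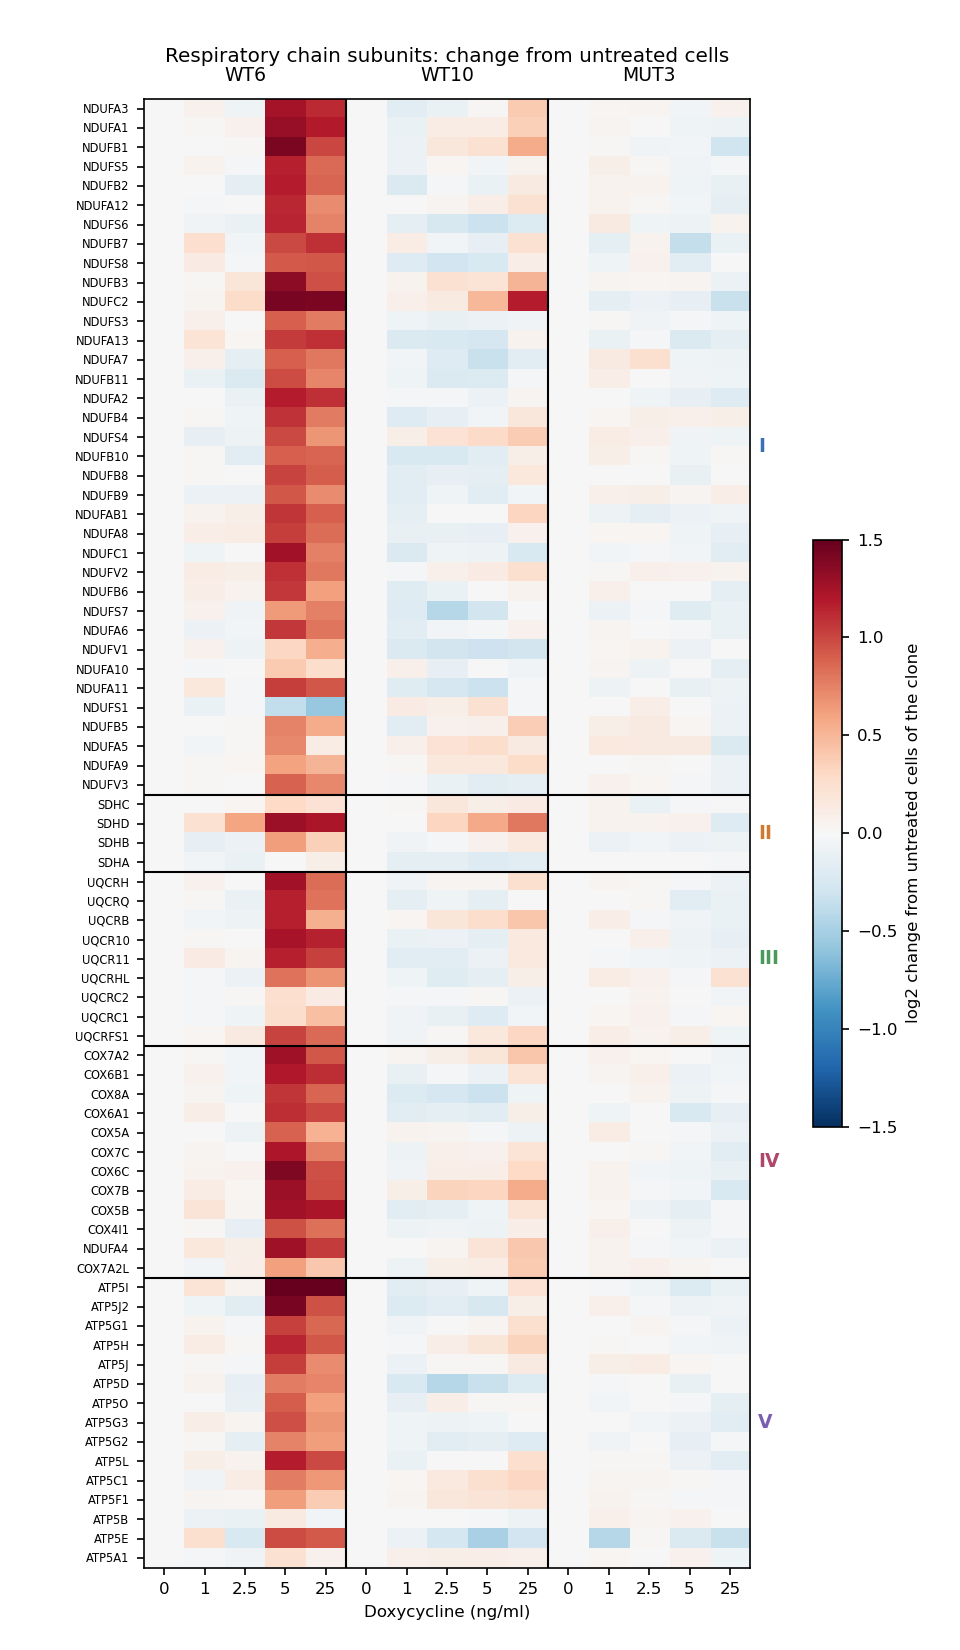
Log2 change of 76 tested subunit genes from the untreated cells of its own clone, one row per gene and one column per library, grouped by complex (I to V) and ordered by transcript length within a complex. Red is higher and blue lower than untreated, and colours saturate at 1.5 on either side, which only ATP5I passes, at 1.61 in WT6 cells at 5 ng/ml. The WT6 columns at 5 and 25 ng/ml are red for 74 of the 76 genes each, and the MUT3 columns stay pale.

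Complex I, NADH dehydrogenase, had 35 of 37 tested subunits rising in WT6 cells, with a median slope of 0.21. The largest slope was that of NDUFC2, a membrane arm subunit whose values are given with the WT10 results. It was followed by NDUFA1, a small membrane arm subunit essential for assembly, which measured 982, 990.3, 1029.9, 2433 and 2241 in order of dose, a slope of 0.31 (SE 0.06, limma adjusted p = 0.00068). The values at 5 and 25 ng/ml lay apart from the 3 lower ones, which differed little among themselves. Among the core subunits, which carry the flavin and iron-sulfur centers, NDUFV1, the NADH-binding flavoprotein, had a slope of 0.13 (SE 0.03, limma adjusted p = 0.0025). Without the WT6 library at 25 ng/ml it did not pass (limma adjusted p = 0.211), nor with length and GC trends removed, where the slope was 0.01 (adjusted p = 0.496).

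NDUFS1, the largest iron-sulfur subunit of complex I, was the exception. It measured 2117, 1984, 2076, 1638 and 1433 in WT6 cells, a slope of -0.13 (SE 0.029, limma adjusted p = 0.0018), while it ran from 1682 to 1979.6 in WT10 cells and from 2415 to 2739 in MUT3 cells. Its WT6 values at 5 and 25 ng/ml were its lowest in that clone, where NDUFV1, its partner in the NADH-oxidizing module, had its highest. Without the WT6 library at 25 ng/ml the slope was -0.12 and no longer passed (limma adjusted p = 0.0859). NDUFA5, an accessory subunit of the hydrophilic arm, was the other complex I subunit not called as rising, with a slope of 0.06 (SE 0.053, adjusted p = 0.37).

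Complex II, succinate dehydrogenase, had the lowest median slope of the 5 complexes in WT6 cells, 0.09, and 2 of its 4 subunits rose. The flavoprotein SDHA measured 4029, 3901, 3774, 4025 and 4279, a slope of 0.02 (SE 0.021, limma adjusted p = 0.35), so its untreated value lay inside the range of the treated ones. The iron-sulfur subunit SDHB rose with a slope of 0.11 (SE 0.042, adjusted p = 0.029), which did not pass without the WT6 library at 1 ng/ml (limma adjusted p = 0.0764). The membrane anchors SDHC and SDHD parted: SDHC had a slope of 0.06 (SE 0.025, adjusted p = 0.054) and SDHD one of 0.29 (SE 0.047, adjusted p = 0.00016). With length and GC trends removed, described further on, the slope of SDHB was -0.0047 and that of SDHC was -0.08 and called as falling (limma adjusted p = 0.0104). Without WT6 at 5 and 25 ng/ml that of SDHB was -0.05.

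In complex III, the cytochrome bc1 complex, 8 of 9 subunits rose in WT6 cells, with a median slope of 0.22. The small subunit UQCR10 had the largest, 0.30 (SE 0.059, limma adjusted p = 0.00078), with values of 1255, 1273, 1259, 2948 and 2804. UQCR11, another small subunit, followed at 0.26 (SE 0.055, adjusted p = 0.0012). The Rieske iron-sulfur protein UQCRFS1, which takes electrons from ubiquinol, measured 2269, 2322, 2483.5, 4593 and 4087, a slope of 0.22 (SE 0.047, adjusted p = 0.0013). The core proteins moved less, with a slope of 0.11 (SE 0.026, adjusted p = 0.003) for UQCRC1 and of 0.04 (SE 0.023, adjusted p = 0.17) for UQCRC2. That of UQCRC1 was 0.08 without the WT6 library at 25 ng/ml (limma adjusted p = 0.191) and 0.0094 with length and GC trends removed (adjusted p = 0.532), where UQCRC2 was called as falling, at -0.05.

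In complex IV, cytochrome c oxidase, all 12 tested subunits rose in WT6 cells, and their median slope, 0.25, was the highest of the 5 complexes. COX5B, a zinc-binding subunit, measured 1283, 1465, 1317, 3074 and 3003, a slope of 0.30 (SE 0.058, limma adjusted p = 0.00066). COX6B1, which faces the intermembrane space, measured 3265, 3401, 3163, 7509.8 and 7023, a slope of 0.28 (SE 0.06, adjusted p = 0.0012). For both, the values at 5 and 25 ng/ml were above those at every lower dose. COX4I1 and COX5A, subunits that join the core early in assembly, had slopes of 0.22 (SE 0.053, adjusted p = 0.0031) and 0.15 (SE 0.051, adjusted p = 0.02), and without untreated WT6 cells COX5A no longer passed (limma adjusted p = 0.062). The slope of COX5A with length and GC trends removed was 0.0077 (adjusted p = 0.805).

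In complex V, 13 of 15 subunits rose in WT6 cells, with a median slope of 0.19. The membrane subunit ATP5I (subunit e) had the largest slope of all members, 0.37 (SE 0.072, limma adjusted p = 0.00066), with values of 1021, 1177, 1058, 3113 and 2886. The membrane subunit ATP5J2 (subunit f) followed within the complex at 0.27 (SE 0.079, adjusted p = 0.0097). The 2 subunits not called were ATP5A1 and ATP5B, the alpha and beta chains that form the catalytic head. ATP5A1 measured 14774, 14616, 14264, 17307 and 15429, a slope of 0.03 (SE 0.025, adjusted p = 0.4), and ATP5B measured 18695, 17593, 17419.7, 20525 and 18241.5, a slope of 0.01 (SE 0.024, adjusted p = 0.81). These are among the most abundant members, and their untreated values lay inside the range of the treated ones.

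**Figure D2:**
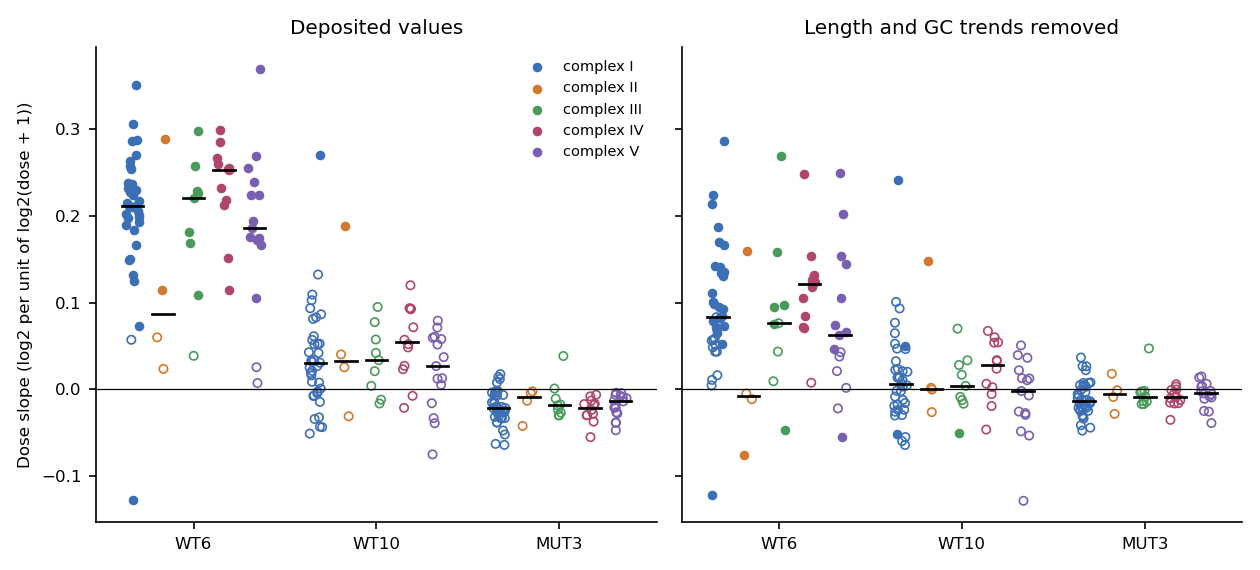
Dose slope of each tested subunit gene (log2 per unit of log2(dose + 1)) by clone and complex, from the deposited values (left) and with the trends in transcript length and GC content taken out (right). Filled points have an adjusted p under 0.05, open points do not, and bars are medians. In WT6 cells 70 of 77 points are filled and above 0 on the left and 50 on the right, while most points of WT10 and MUT3 cells sit close to 0 in both panels. NDUFC2 and SDHD lie higher in WT10 cells, at 0.24 and 0.15 on the right.

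The WT6 slopes moved with transcript length, and the members are short. Annotated transcripts of the 77 members ran from 303 to 5200.5 nucleotides with a median of 704, against a median of 2631.5 over all tested genes. When the tested genes were put into 5 classes of equal size by transcript length, 59.8% of the shortest class (up to 1511 nucleotides) rose in WT6 cells. The share fell from class to class, through 37.6% and 25.9% in the next 2, to 8.01% of the longest. The shortest class held 59 members, of which 57 rose. The median log2 change of all genes of that class in WT6 cells was 0.61 and 0.56 in the libraries of 5 and 25 ng/ml, and that of the longest class -0.43 and -0.49.

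Once each library's trends with length and GC were taken out, 30.0%, 26.0%, 31.0%, 30.9% and 30.0% of the genes of the 5 classes rose, and 39 of the 59 members in the shortest class. Over all members, 50 rose and 4 fell in WT6 cells (NDUFS1, SDHC, ATP5B and UQCRC2), where 29.6% of all genes rose and 28.8% fell, and the members' median slope was 0.08. By complex, 24 of 37 subunits of complex I, 1 of 4 of complex II, 5 of 9 of complex III, 11 of 12 of complex IV and 9 of 15 of complex V rose. Of the 18 members with transcripts over 1500 nucleotides, 13 rose before and 11 after the removal. In the classes above 1511 nucleotides, 8.01% to 37.6% of all genes rose before and 26.0% to 31.0% after it. UQCRFS1, with 3086 nucleotides, had a slope of 0.27 after the removal (limma adjusted p = 0.00041). NDUFV3, an accessory subunit with 5200.5 nucleotides, had one of 0.19 before and 0.29 after it (adjusted p = 0.00087). A length here is the median over a gene's annotated protein-coding transcripts, and which of them these cells express was not measured. Where a shorter form is expressed, the removal may be too small. What part length, and whatever made short transcripts rise in the WT6 libraries at 5 and 25 ng/ml, has in the members' rise was not tested.

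**Figure D3:**
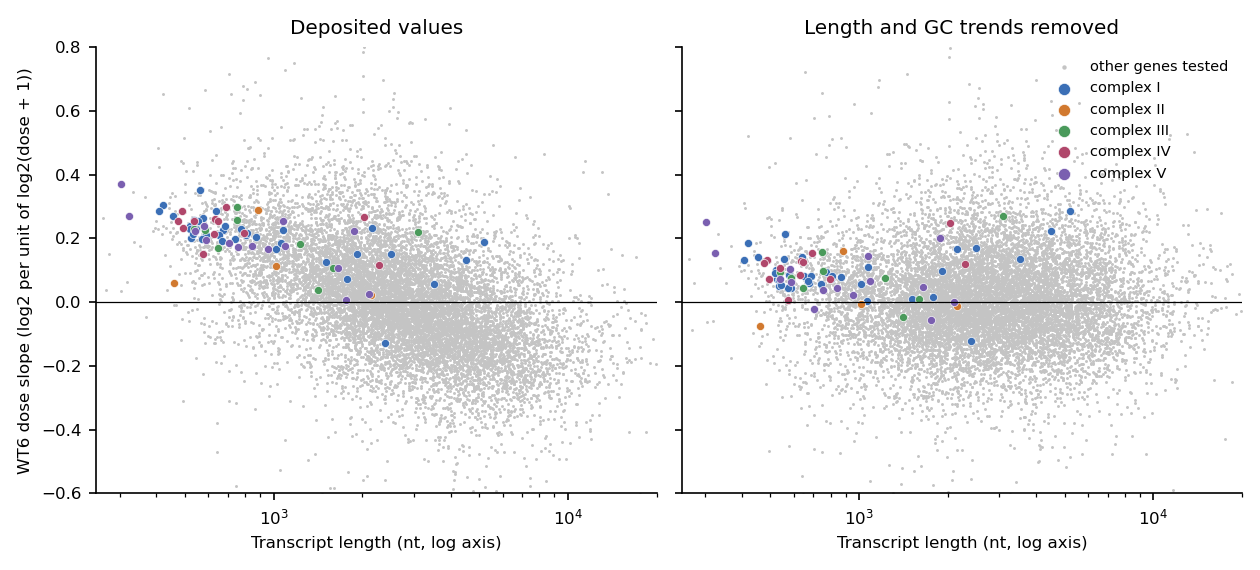
WT6 dose slope (log2 per unit of log2(dose + 1)) against annotated transcript length (nucleotides, log axis) for the 12113 tested genes with an annotation, from the deposited values (left) and with length and GC trends removed (right). Subunit genes are coloured by complex and other genes grey; 98 genes on the left and 92 on the right lie outside the axes. On the left the grey cloud falls with length and most members sit at its short, high end, while on the right the cloud is level and the members' median is 0.08.

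In WT10 cells few members changed. NDUFC2 and SDHD rose and none fell, where 10.2% of all tested genes rose and 9.83% fell, and at an unadjusted p under 0.05 there were 3 members. The member slopes had a median of 0.03 and ran from -0.07 (ATP5E) to 0.27 (NDUFC2). At 25 ng/ml, 55 of the 77 members were above their untreated value, with a median log2 change of 0.14, and 51 (66.2%, against 34.8% of all genes) had their highest WT10 value there. The median log2 change of all genes in that library also fell with transcript length, from 0.08 in the shortest class to -0.11 in the longest. Without the length and GC trends, the members' median slope was 0.0065. Then 3 members rose, NDUFC2 and SDHD among them, and NDUFV1 and UQCRC2 fell, where 16.4% of all genes rose and 18.1% fell. The count depended on the WT6 libraries through the spread that the clones share in the fit: without WT6 at 5 and 25 ng/ml, 27 members rose in WT10 cells, where 18.7% of all genes did, with slopes between 0.05 (ATP5F1) and 0.27. Leaving out only the library at 5 ng/ml gave 19, where 15.8% of all genes rose.

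NDUFC2 (GRCh37 chr11:77779343-77790908, minus strand, 561 nucleotides of transcript) is an accessory subunit in the membrane arm of complex I. Its normalized counts were 357.3, 367.5, 433.1, 956.4 and 955.4 in WT6 cells, 271.5, 285.5, 297.2, 382.7 and 614.5 in WT10 cells, and 380.2, 344.1, 358.8, 348.2 and 301.7 in MUT3 cells. Both wild type clones were highest at 5 and 25 ng/ml, and MUT3 cells were lowest at 25 ng/ml. The slope was 0.35 in WT6 cells (SE 0.059, limma adjusted p = 0.00022), 0.27 in WT10 cells (SE 0.064, adjusted p = 0.0083) and -0.06 in MUT3 cells (SE 0.066). After removal of the trends the slopes were 0.21 in WT6 and 0.24 in WT10 cells. The WT10 call rested on the highest dose, since without the WT10 library at 25 ng/ml the slope was 0.18 (adjusted p = 0.536). NDUFC2 overlaps the readthrough gene NDUFC2-KCTD14 on its own strand, which was listed at 0 or 1.1, and THRSP on the other strand, and strand may not have been kept, as the sources used here do not give it.

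SDHD (GRCh37 chr11:111957548-111990739, plus strand, 883 nucleotides of transcript) is the small anchor that holds complex II in the membrane and forms part of its quinone site. Its normalized counts were 2386, 2805, 3594, 5816 and 5563 in WT6 cells, 1441, 1439.9, 1803, 2139 and 2501 in WT10 cells, and 2386, 2466, 2479, 2495.5 and 2089 in MUT3 cells. In WT6 cells it was already above the untreated level at 1 and 2.5 ng/ml, with the largest log2 change of all members at 2.5 ng/ml, 0.59. WT10 cells had a higher level at each dose from 2.5 ng/ml upward. The slope was 0.29 in WT6 cells, as given above, 0.19 in WT10 cells (SE 0.048, limma adjusted p = 0.013) and -0.04 in MUT3 cells (SE 0.047). After removal of the trends it was 0.16 in WT6 and 0.15 in WT10 cells, and without the WT6 libraries at 5 and 25 ng/ml it was 0.33 in WT6 cells (adjusted p = 0.0218). Without the WT10 library at 25 ng/ml the WT10 slope was 0.23 (adjusted p = 0.256). The annotation lists 6 pseudogenes of SDHD, with which reads can be shared, and an unnamed protein-coding gene that overlaps it on the same strand.

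**Figure D4:**
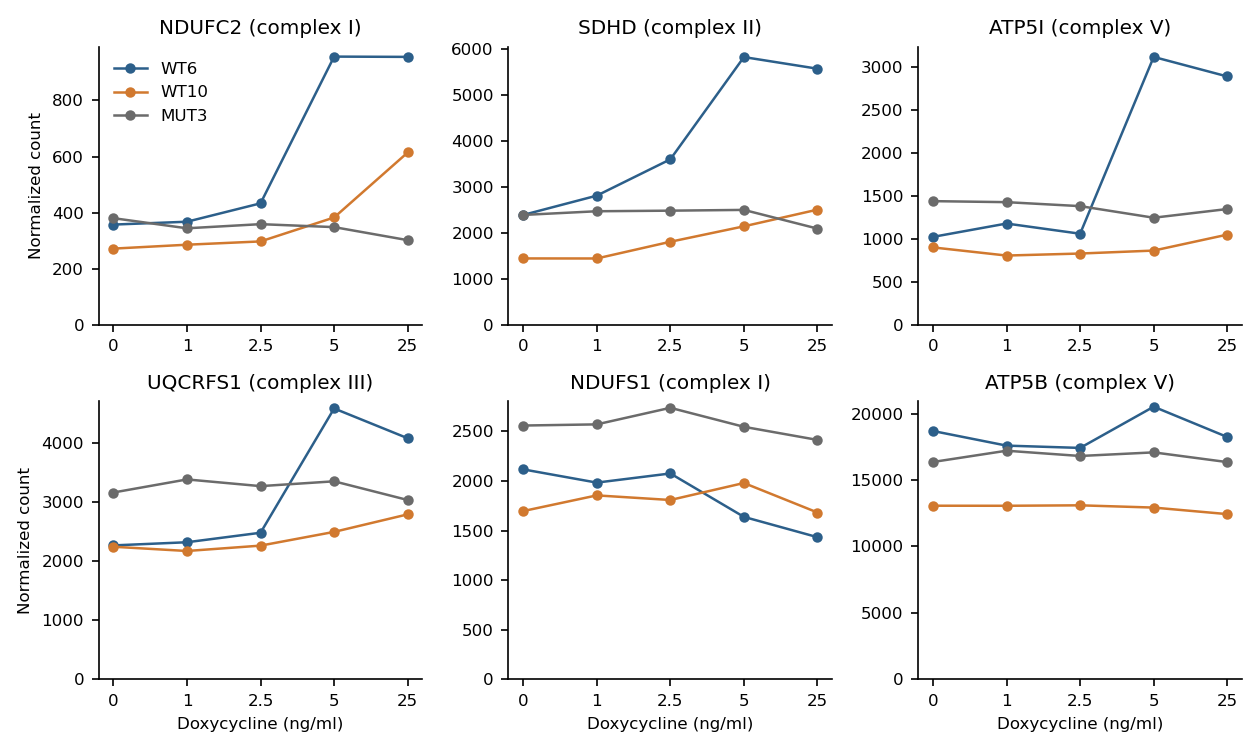
Normalized count (linear axes from 0) against doxycycline dose for 6 subunits, 1 point per library and 1 line per clone. NDUFC2 and SDHD rise in both wild type clones and not in MUT3 cells; ATP5I and UQCRFS1 step up between 2.5 and 5 ng/ml in WT6 cells; NDUFS1 is lowest at 5 and 25 ng/ml in WT6 cells; and the dose slope of ATP5B passed the test in none of the 3 clones.

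In MUT3 cells no member was called by limma in either direction, where 0.0% of all genes rose and 0.0% fell. RBM47 itself was among the genes not called, though its count rose from 73.8 untreated to 22084 at 25 ng/ml. The clones share the spread in this fit, so a count of 0 does not show that the members were unchanged. No member passed an unadjusted p under 0.05 (295 of all tested genes did), and edgeR and DESeq2 called 0 members each. The slopes ran from -0.06 (NDUFB1) to 0.04 (UQCRHL) and 71 of the 77 were below 0, while 54.5% of all tested genes had a slope above 0. At 25 ng/ml, where the mutant transgene had its highest count, 12 members were above their untreated value and the median log2 change was -0.08. Only 4 members had their highest MUT3 value there (5.19%, against 26.2% of all genes). Trend removal again gave counts of 0 members, with 0.033% of all genes rising.

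The wild type clones were compared with the mutant clone through the difference between the mean wild type slope and the MUT3 slope. The difference was above 0 for 75 of the 77 members, where 50.7% of all tested genes were above 0. Its median over the members was 0.14, and 0.06 with length and GC trends removed. The difference passed the test above 0 for 9 members, where it did so for 10.1% of all tested genes above 0 and 14.6% below. Among the 9 were NDUFC2, NDUFB1 and NDUFA1 of complex I, SDHD, UQCRFS1, COX7B and NDUFA4 of complex IV, and ATP5L of complex V. NDUFC2 had the largest difference, 0.37 (SE 0.079, limma adjusted p = 0.0048), and SDHD the next, 0.28 (SE 0.057, adjusted p = 0.0042). NDUFB1, a small membrane arm subunit, followed at 0.27 (SE 0.091, adjusted p = 0.045), then COX7B at 0.24 (SE 0.074, adjusted p = 0.029) and NDUFA1 at 0.22 (SE 0.071, adjusted p = 0.038). All 9 passed again with length and GC trends removed, at 0.27 for NDUFC2 and 0.18 for SDHD, with NDUFA9, NDUFB3 and NDUFB5 above 0 and UQCRC2 below 0, where 15.3% of all genes were above and 19.7% below.

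This count moved with single libraries. It was 57 without the WT6 library at 5 ng/ml, where 18.4% of all genes passed above 0. Leaving out the WT6 library of 25 or of 2.5 ng/ml gave 36 and 22, where 12.4% and 12.0% of all genes passed. Leaving out the library of 25 ng/ml gave 0 for MUT3 and 1 for WT10, where 0.0158% and 2.82% of all genes passed. It was between 2 and 5 without any one of untreated WT6, WT6 at 1 ng/ml, WT10 at 1, 2.5 or 5 ng/ml, untreated MUT3 or MUT3 at 1, 2.5 or 5 ng/ml (3.69% to 9.72% of all genes), and 10 without untreated WT10 (11.6%). Without the MUT3 library at 25 ng/ml the difference was 0.21 for SDHD (limma adjusted p = 0.252), and for NDUFC2 the adjusted p was 0.197.

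COX7B, a single-chain membrane subunit of complex IV, and NDUFB1 show what such a difference looks like. COX7B measured 1265, 1364, 1296, 3082 and 2494 in WT6 cells, 1819.6, 1936, 2293, 2267 and 2686 in WT10 cells, and 2796, 2908, 2764, 2728 and 2379 in MUT3 cells. Its level was highest at 25 ng/ml in WT10 cells and lowest there in MUT3 cells. NDUFB1 measured 777, 779, 789, 2074 and 1561 in WT6 cells, 585, 553, 660.2, 688 and 860.03 in WT10 cells, and 839, 847, 807, 819 and 683 in MUT3 cells, with the same order at 25 ng/ml.

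Promoters are printed for 4 of the 5 members with the largest such difference, since the promoters of this gene class are known for shared motifs; NDUFC2 is named only. The sequences are RefSeq's, on GRCh38.p14, the 250 bases before the start, 5′ to 3′ on the gene's strand. Capitals mark matches to the NRF1 motif, a palindrome of GCGCA and its reverse complement TGCGC, or to the ETS motif CCGGAAG (its other strand reads CTTCCGG), which do not overlap each other; no YY1 motif AAGATGGC (other strand GCCATCTT) was found in the 4.
SDHD (chr11:112086623-112086872, plus strand): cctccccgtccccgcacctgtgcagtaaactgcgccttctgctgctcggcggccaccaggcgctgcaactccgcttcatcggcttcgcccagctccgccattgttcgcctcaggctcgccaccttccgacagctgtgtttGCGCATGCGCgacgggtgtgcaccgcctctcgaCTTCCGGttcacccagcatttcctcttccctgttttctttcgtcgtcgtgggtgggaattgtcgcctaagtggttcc
NDUFA1 (chrX:119871582-119871831, plus strand): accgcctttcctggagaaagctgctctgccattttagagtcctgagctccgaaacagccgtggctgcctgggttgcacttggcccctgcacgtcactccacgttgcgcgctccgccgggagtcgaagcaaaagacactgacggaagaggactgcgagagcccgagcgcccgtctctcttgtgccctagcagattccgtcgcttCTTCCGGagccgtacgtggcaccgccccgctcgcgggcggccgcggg
NDUFB1 (chr14:92121707-92121956, minus strand): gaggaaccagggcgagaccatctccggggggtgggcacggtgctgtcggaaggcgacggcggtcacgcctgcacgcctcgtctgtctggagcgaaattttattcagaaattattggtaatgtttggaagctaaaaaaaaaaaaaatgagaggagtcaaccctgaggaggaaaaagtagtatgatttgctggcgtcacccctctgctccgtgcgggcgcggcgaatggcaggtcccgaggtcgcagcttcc
COX7B (chrX:77899218-77899467, plus strand): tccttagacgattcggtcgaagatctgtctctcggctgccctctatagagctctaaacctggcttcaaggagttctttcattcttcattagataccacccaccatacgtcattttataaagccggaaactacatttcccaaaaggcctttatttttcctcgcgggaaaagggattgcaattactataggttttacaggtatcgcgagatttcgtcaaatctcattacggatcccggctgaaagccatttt

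Across the window of 250 bases before and 50 after the start, searched on both strands, 67 subunit genes had a RefSeq entry. The exact NRF1 motif was in 4 of them (5.97%: NDUFA8, NDUFB4, SDHD and ATP5C1), the ETS motif in 20 (29.9%) and the YY1 motif in 12 (17.9%). Among 9747 tested genes with an entry the shares were 2.71%, 23.1% and 6.76%, and among all 27305 RefSeq genes 1.52%, 12.2% and 3.52%. The ETS motif was in 5 of 32 complex I genes and in 5 of 11 complex V genes. The YY1 motif was in 7 of the 32 and in 0 of 14 complex IV genes. At least one motif was in 33 of the 67 (49.3%), against 29.8% of the tested genes. A match is a run of letters in this window, and no match says nothing about the factor.

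WT6 and WT10 cells were compared by the difference of their slopes, which shares its libraries with the comparison above. WT6 minus WT10 was above 0 for 76 of 77 members, where 50.1% of all tested genes were above 0. Its median over the members was 0.17, and 0.07 with length and GC trends removed. It passed the test for 8 members, where 7.28% of all tested genes passed above 0 and 7.09% below. These were NDUFA2 (0.28, SE 0.086), NDUFA13 (0.24, SE 0.073), NDUFV3 (0.22, SE 0.066), NDUFS3 (0.21, SE 0.066) and NDUFV1 (0.18, SE 0.042) of complex I, UQCRC1 (0.12, SE 0.037) of complex III, and ATP5D (0.22, SE 0.071) and ATP5G2 (0.21, SE 0.063) of complex V, with limma adjusted p from 0.022 (NDUFV1) to 0.0498 (ATP5D). NDUFA2, a hydrophilic arm subunit, stayed between 1249 and 1363 in WT10 cells while it went from 1226 untreated to 2769 at 5 ng/ml in WT6 cells. ATP5D, the delta subunit of the central stalk, measured 2151, 2234, 1968, 3666 and 3561 in WT6 cells and was highest untreated in WT10 cells, at 1910.5. NDUFA13, also known as GRIM-19, measured 4853 and 5009 at 5 and 25 ng/ml in WT6 cells and between 2288 and 2819 in WT10 cells.

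With length and GC trends removed, 6 members passed above 0 (NDUFA2, NDUFV1, NDUFV3, NDUFA1, UQCR10 and ATP5E) and NDUFS1 passed below 0, at -0.10, where 7.19% of all genes passed above and 7.61% below. The count of 8 was 57 without the WT6 library at 5 ng/ml (15.8% of all genes passed above 0), 23 without the one at 2.5 ng/ml (10.2%) and 8 without the WT10 library of the highest dose (7.7%). It was 0 without WT6 at 25 ng/ml or without untreated WT10, 3 without untreated WT6, and 1 without WT6 at 1 ng/ml, without WT10 at 1, 2.5 or 5 ng/ml or without any 1 MUT3 library. In the fits that gave 0 to 3, between 0.261% and 6.81% of all genes passed.

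Several subunits exist as isoforms from separate genes, with the tissue forms known mainly from muscle, lung or testis. In these cells the ubiquitous forms were the higher ones in every family, and COX7B2, described after them, was the tissue form with the highest counts. COX4I1 ran from 3527 to 8165 over the 15 libraries and COX6A1 from 2163 to 4696, while COX4I2, the lung form, and COX6A2, the muscle form, were listed at 0 in all 15. COX8A ran from 3363 to 9853, and COX8C, the testis form, was above 0 in 1 library only, at 0.4. COX7A2 ran from 2117 to 7665, and COX7A1, the muscle form, from 4.9 to 13.7. COX7A2L, which joins complexes III and IV into supercomplexes, ran from 1913.5 to 3343. NDUFA4, a subunit of complex IV despite its name, ran from 2285 to 7576.5, and its relative NDUFA4L2 from 0 to 8.3. COX6B1 ran from 2473 to 7509.8.

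The testis isoforms COX7B2 and COX6B2 were found in WT6 cells. COX7B2 measured 401, 316, 383, 829.7 and 655 in WT6 cells in order of dose, 0 in all 5 MUT3 libraries and at most 0.8 in WT10 cells, so the clones did not overlap. It was beneath COX7B in every WT6 library. COX6B2 ran from 7.7 to 11.2 in WT6 cells and from 0 to 1.6 in the others, where 3 reads were worth between 1.19 and 3.75. COX7B2 was under the filter in WT10 and MUT3 cells. COX6B2 was under it in WT6 cells as well, with a mean of 9.48 there, so neither was tested.

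**Figure D5:**
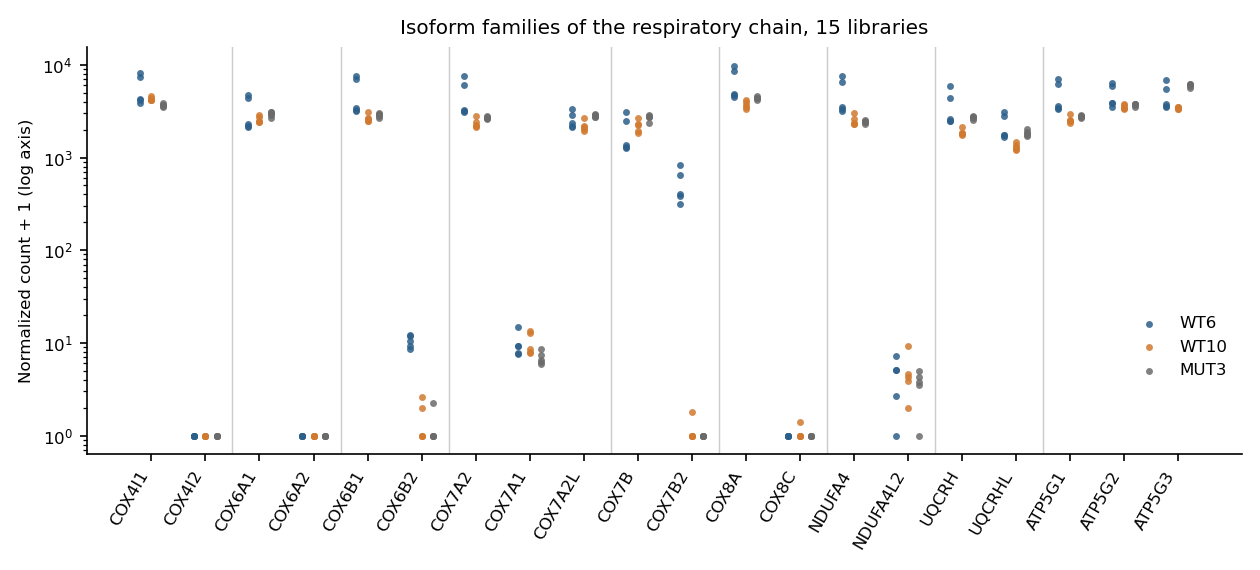
Normalized count + 1 (log axis) of isoform families and close paralogs, with 5 points per clone, 1 for each dose; grey lines separate families. COX4I2 and COX6A2 lie at the bottom in every library, COX7B2 lies high in WT6 cells only (316 to 829.7), and the 3 ATP5G genes lie between 2375 and 6988.

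Some members are near copies of each other, and the authors' counting may divide or drop the reads they share. UQCRH, the hinge protein of complex III, and UQCRHL, an intronless copy, each have 276 coding bases and differ at 4 (98.6% identical), with an identical run of 157 bases. They are printed from GRCh37, with the differing bases in capitals, because a read that lies within the identical run cannot be assigned to either.
UQCRH (chr1:46769439-46782256, plus strand, spliced): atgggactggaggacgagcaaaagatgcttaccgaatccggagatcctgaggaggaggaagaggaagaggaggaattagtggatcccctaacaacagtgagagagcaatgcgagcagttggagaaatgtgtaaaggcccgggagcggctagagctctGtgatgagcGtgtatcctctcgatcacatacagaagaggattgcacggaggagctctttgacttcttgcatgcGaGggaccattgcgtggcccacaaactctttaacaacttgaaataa
UQCRHL (chr1:16133869-16134144, minus strand): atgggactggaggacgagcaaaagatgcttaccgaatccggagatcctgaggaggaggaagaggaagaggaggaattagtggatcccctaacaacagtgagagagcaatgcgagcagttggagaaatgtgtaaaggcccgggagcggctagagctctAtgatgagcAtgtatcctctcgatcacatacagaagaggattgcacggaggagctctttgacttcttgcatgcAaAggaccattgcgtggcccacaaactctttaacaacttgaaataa

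UQCRH measured 2473.5, 2593, 2457, 5909 and 4423 in WT6 cells and UQCRHL 1763, 1744, 1654, 3097 and 2811.5, with slopes of 0.23 (SE 0.064, limma adjusted p = 0.0073) and 0.18 (SE 0.048, adjusted p = 0.0054). Both took the same step at 5 ng/ml, and how much of either count belongs to the other gene is uncertain. The nuclear genes ATP5G1, ATP5G2 and ATP5G3 encode the same mature c subunit, copies of which form the rotating ring of complex V, behind different import signals. Their last 234 coding bases, over which the 3 genes encode the same amino acids, are printed (GRCh37, spliced) with the positions that differ among the 3 in capitals.
ATP5G1 (chr17:46972578-46973131, plus strand): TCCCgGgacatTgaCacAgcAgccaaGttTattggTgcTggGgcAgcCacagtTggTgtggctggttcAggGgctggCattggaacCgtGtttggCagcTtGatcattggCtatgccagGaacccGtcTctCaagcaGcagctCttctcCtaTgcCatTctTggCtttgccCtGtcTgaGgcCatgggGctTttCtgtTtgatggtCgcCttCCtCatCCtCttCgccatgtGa
ATP5G2 (chr12:54059098-54063050, minus strand): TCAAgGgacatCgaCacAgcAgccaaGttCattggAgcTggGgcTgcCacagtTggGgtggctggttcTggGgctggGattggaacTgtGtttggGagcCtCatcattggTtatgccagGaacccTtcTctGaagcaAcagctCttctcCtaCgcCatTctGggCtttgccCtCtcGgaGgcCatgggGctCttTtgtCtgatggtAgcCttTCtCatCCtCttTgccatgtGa
ATP5G3 (chr2:176043016-176043903, minus strand): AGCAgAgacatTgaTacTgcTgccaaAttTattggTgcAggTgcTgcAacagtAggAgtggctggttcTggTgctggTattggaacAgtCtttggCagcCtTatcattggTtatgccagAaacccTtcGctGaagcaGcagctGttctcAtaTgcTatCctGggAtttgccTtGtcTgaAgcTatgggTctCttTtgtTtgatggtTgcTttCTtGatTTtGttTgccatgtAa

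ATP5G1 and ATP5G2 differ at 27 of these bases and each differs from ATP5G3 at 47, with no identical run over 17 bases. Over this stretch, reads of the 3 genes can thus be told apart from each other. The annotation lists 8 pseudogenes of ATP5G1 and 5 of ATP5G2, with which reads can be shared. ATP5G1 measured 3443, 3566, 3363, 6988 and 6238 in WT6 cells, ATP5G2 3847, 3903, 3484, 6433.5 and 5931, and ATP5G3 3506, 3758, 3611.5, 6868 and 5559. The slopes in WT6 cells were 0.22 (SE 0.052), 0.17 (SE 0.045) and 0.18 (SE 0.048), with limma adjusted p of 0.0022, 0.0059 and 0.0064, so all 3 genes rose. After trend removal only ATP5G1 passed, at 0.07 (limma adjusted p = 0.0152), while ATP5G2 had a slope of 0.02 (adjusted p = 0.398) and ATP5G3 one of 0.04 (adjusted p = 0.0941). In WT10 cells their slopes were 0.06, -0.04 and 0.01, and none passed the test.

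Without doxycycline the clones differed in these genes. Per kilobase of annotated transcript, the members' untreated levels had medians of 2350 in WT6, 1950 in WT10 and 2320 in MUT3 cells. ATP5B was the highest in WT6 and MUT3 cells, at 10600 and 9300 per kilobase, and COX8A in WT10 cells, at 8520. ATP5E, the epsilon subunit of the central stalk, was the lowest in all 3, between 69.3 and 74.9 per kilobase. ATP5E measured between 96.6 and 264 normalized counts over the 15 libraries and its pseudogene ATP5EP2 between 234 and 741, so its level is uncertain.

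In WT10 cells the untreated level was below that of MUT3 cells, its sister clone from the same line, for 65 of 77 members, with a median log2 difference of -0.32, where the levels were the intercepts of the limma fit. It was above for 12 members, where 48.9% of all tested genes were above. The limma fit called 19 lower and 0 higher, where 13.9% of all tested genes were lower and 14.3% higher. NDUFB9, a membrane arm subunit of complex I, differed most: it ran from 823 to 928 in WT10 and from 2018 to 2157 in MUT3 cells, with no overlap at any dose, a difference of -1.23 (SE 0.196, limma adjusted p = 0.00029). NDUFB3 of the same arm followed at -0.93 (SE 0.232, adjusted p = 0.0078), ATP5G3 at -0.89 (SE 0.175, adjusted p = 0.0015) and SDHD at -0.85 (SE 0.173, adjusted p = 0.0019). With length and GC trends removed 36 were lower and 3 higher (21.9% and 20.2% of all genes). Without the WT6 libraries at 5 and 25 ng/ml 57 were lower, where 24.4% of all genes were. Without the first of these alone 47 were lower (21.2% of all genes), and without untreated MUT3 or MUT3 at 25 ng/ml 12 were (8.24% and 9.93%).

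Untreated WT6 cells, set against the mean of WT10 and MUT3, had 16 members higher and 7 lower, where 33.7% of all tested genes were higher and 30.7% lower. SDHB was highest, at 1.02 (SE 0.135, limma adjusted p = 8.2e-06), with 2869 in untreated WT6 cells against 1161 in WT10 and 1633 in MUT3 cells. NDUFV2, a core subunit of the NADH module, followed at 0.97 (SE 0.169) and NDUFS6 at 0.83 (SE 0.213). Lowest were NDUFA1 at -1.12 (SE 0.193), COX7B at -0.90 (SE 0.198) and COX5B at -0.79 (SE 0.187). These 3 were among the members with large slopes in WT6 cells, and at 5 ng/ml they reached 2433, 3082 and 3074, above every library of the other clones. Level and slope are the intercept and slope of the same fitted line, so a low level beside a large slope is partly built in. All 4 subunits of complex II were higher in WT6 cells. After trend removal 46 members were higher and 8 lower (38.6% and 35.3% of all genes). Without the WT6 library at 5 ng/ml 20 were higher and 16 lower (36.8% and 34.1% of all genes), and without that at 25 ng/ml 12 and 12 (31.2% and 29.8%).

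Genes that serve the chain without being subunits were listed by role. Of 37 assembly factors, 24 rose and 3 fell in WT6 cells, 6 rose and 1 fell in WT10 cells, and none was called in MUT3 cells. With trends removed 18 rose and 4 fell in WT6 cells. Among all tested genes 29.2% rose and 28.3% fell in WT6 cells, 10.2% and 9.83% in WT10 cells, and 29.6% and 28.8% in WT6 cells with trends removed, and the list counts that follow stand beside the same shares. NDUFAF1, which builds the membrane arm of complex I, measured 369, 414, 419, 703 and 837 in WT6 cells and 246, 236, 268, 285 and 469 in WT10 cells, with slopes of 0.27 (SE 0.04) and 0.22 (SE 0.045) and limma adjusted p of 7.84e-05 and 0.00391. ATPAF2, which assembles the head of complex V, had slopes of 0.31 and 0.15, TMEM70, which assembles its rotor, 0.22 and 0.18, and COA5, of complex IV, 0.42 and 0.16, each past the test in both clones. LRPPRC, which stabilizes mitochondrial mRNAs, fell in WT6 cells from 8873 to 5216 at 25 ng/ml, a slope of -0.17 (SE 0.028, adjusted p = 0.000171).

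Of 10 electron carriers and further chain components outside the rule, 8 rose in WT6 cells and 1 in WT10 cells, the latter no larger a share than that of all genes (10.2%). That 1 was ETFDH, which feeds electrons from fatty acid oxidation into the ubiquinone pool, with slopes of 0.14 (SE 0.033) and 0.22 (SE 0.038). ETFB, a subunit of its electron donor, went from 1498 to 4932 in WT6 cells, a slope of 0.39 (SE 0.057). Cytochrome c, CYCS, had slopes of 0.07 (SE 0.048) and 0.06 (SE 0.047) and was not called. Of 21 genes of the citric acid cycle and pyruvate dehydrogenase, 8 rose and 6 fell in WT6 cells, near the shares of all tested genes (29.2% and 28.3%). OGDH, the E1 subunit of the 2-oxoglutarate dehydrogenase complex, fell in both wild type clones, from 7769 to 3295 in WT6 and from 3970.3 to 2742 in WT10 cells, with slopes of -0.29 (SE 0.041, limma adjusted p = 5.07e-05) and -0.12 (SE 0.04, adjusted p = 0.041).

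Of 16 regulators of mitochondrial gene expression, 4 rose and 6 fell in WT6 cells, where 29.2% and 28.3% of all genes did, and 2 rose and 4 fell in WT10 cells, where 10.2% and 9.83% did. Those that fell in both were PPRC1, a coactivator of NRF1, with slopes of -0.22 and -0.15, NRF1 itself, with -0.15 and -0.11, the mitochondrial DNA polymerase POLG, with -0.18 and -0.08, and GABPB1, the beta chain of GABP, with -0.12 and -0.12. NRF1 measured 515, 465, 377, 358 and 320.1 in WT6 cells, and was also lowest at 25 ng/ml in WT10 cells, at 364, and in MUT3 cells, at 464. TFB2M, which starts mitochondrial transcription, rose in both, with slopes of 0.12 and 0.11, as did MTERF, with 0.13 and 0.19. PPRC1, POLG and NRF1 have annotated transcripts of 4580, 4487 and 3518 nucleotides, and with length and GC trends removed 4 rose and 5 fell there.

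Of 76 mitochondrial ribosomal proteins, 59 rose and 1 fell in WT6 cells, and of 82 cytosolic ribosomal proteins 61 rose and 1 fell, where 29.2% of all genes rose and 28.3% fell. Both lists are short in transcript too, with median lengths of 1156 and 745 nucleotides. With length and GC trends removed, 37 rose and 10 fell among the mitochondrial and 10 rose and 13 fell among the cytosolic ribosomal proteins, beside 50 and 4 among the 77 subunits and 29.6% and 28.8% of all genes. In WT10 cells 2 mitochondrial ribosomal proteins rose and 2 fell, and 0 cytosolic ones rose and 1 fell. These lists are given as counts, and no difference between lists was tested. Of the 7 tested breast and cell line markers, the keratins KRT8, KRT18 and KRT19 rose and CD44 and ERBB2 fell in WT6 cells, while KRT8 and KRT18 rose and ERBB2 fell in WT10 cells. Their part in any result was not tested.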

How the data were processed

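Total RNA from the 15 cultures was made into poly(A)-selected libraries and sequenced as paired-end reads. The authors aligned them to hg19 with STAR 2.3.0 and used HTSeq 0.5.4 for counts per gene. The deposited table has 23368 genes and 5 tallies from HTSeq, and its unit is a signal, namely a gene's read count over its library's DESeq size factor. The gene annotation is not given in the sources used here. The tallies were left out, and 57.6% of the tallied and counted reads (median library) were on no feature. Whether the libraries keep the strand and whether reads were counted by strand is not given in the sources used here, so every count may leave out reads lost to a strand setting. Whole reads were recovered for 100% of the values (within 0.001 of a whole number). The design had assumed raw counts, and the test was the one for normalized values.

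limma 3.58.1 (R 4.3.3) was fitted to log2(value + 1) of the 12644 genes with a mean of at least 10 in each clone, with precision weights from the trend of variance with mean (vooma), per clone 1 level and 1 slope on log2(dose + 1) (6 coefficients, 9 residual degrees of freedom) and Benjamini-Hochberg adjustment over all 12644. With 1 library per condition, p-values rest on the scatter of libraries around these lines. Length and GC trends were removed with splines of 4 degrees of freedom, using GENCODE 44 on hg19 and the median length over a gene's protein-coding transcripts. Alternatives were a pseudocount of 5, no filter, no weights, edgeR 4.0.16 (quasi-likelihood) and DESeq2 1.42.0 on the recovered reads, other dose scales, clones fitted alone and left-out libraries. The functions for the limma, edgeR and DESeq2 fits were tested on simulated counts, and the other steps were not. Tables and figures were made with Python 3.11.15, pandas 2.3.3 and matplotlib 3.10.9.

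The members, the pathway lists and the rule for named genes were chosen with earlier results of these data known. Named were, per complex, the 2 largest rising and falling slopes in WT6 and in WT10 among called genes, all isoform families, the core subunits, up to 5 members in each direction for the slope differences, the 3 largest level differences in each direction, and RBM47. A member among these is not reported here. Further members named in the report were chosen after their values were seen.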

Additional observations from a re-analysis of the deposited data

Results flagged for a closer look

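The difference between the mean wild type slope and the MUT3 slope is listed because the contrast of the slopes itself was tested. It passed above 0 for 9 members, close to the share of all tested genes that did (10.1%), so this count does not set the members apart. The count was 57 without the WT6 library at 5 ng/ml and 0 without the MUT3 library at 25 ng/ml. The largest were NDUFC2 (0.37), SDHD (0.28), NDUFB1 (0.27), COX7B (0.24) and NDUFA1 (0.22), all in log2 per unit of log2(dose + 1) with limma adjusted p under 0.05. For each of these 5, both wild type slopes were above 0 and the MUT3 slope was below 0, an order that choosing by the largest difference favours. Of all 77 members, 76 had a WT6 slope and 58 a WT10 slope above 0, and 71 had a MUT3 slope below 0. Among all tested genes 51.3%, 48.7% and 54.5% had a slope above 0 in WT6, WT10 and MUT3 cells. NDUFC2 and SDHD were also the members called within WT10 cells.

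WT6 and WT10 cells, both with wild type RBM47, differed in the same kind of test for 8 members, where 7.28% of all tested genes passed above 0, and the count ran from 0 to 57 when single libraries were left out (57 without WT6 at 5 ng/ml, 0 without WT6 at 25 ng/ml or untreated WT10). The 8 include NDUFA2 (0.28), NDUFA13 (0.24), NDUFV3 (0.22), ATP5D (0.22) and NDUFS3 (0.21). With length and GC trends removed the difference for ATP5D was 0.03 and that for NDUFA2 was 0.16. The clones come from different lines by the study's methods, and line and clone cannot be told apart.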

How the results depend on the processing

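No paired analysis was possible because each clone and dose has 1 library. The counts below are of the 77 members, and a count not given stayed within 1.5 times the reported one. A pseudocount of 5 moved only the count of 19 given below, to 18, and edgeR gave 13 and 11 for the slope differences. Leaving out WT6 at both 5 and 25 ng/ml was chosen after seeing the data. The cause was not tested for any change given here.

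In WT6 cells 70 rose and 1 fell. The rising count was 44 on dose in ng/ml, 30 with each clone fitted alone, 0 for any doxycycline against none, 0 on log2 RBM47 and 1 without WT6 at 5 and 25 ng/ml, and 64 to 71 when single libraries were left out. The falling count was 4 with length and GC trends removed, and 0 for any doxycycline, on log2 RBM47, without the 25 ng/ml libraries and without WT6 at 5 and 25 ng/ml, and 0 to 1 over single libraries (0 without WT6 at 25 ng/ml).

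In WT10 cells 2 rose and 0 fell. The rising count was 17 with clones alone, 27 without WT6 at 5 and 25 ng/ml, 1 on dose in ng/ml, 0 for any doxycycline, on log2 RBM47 and without the 25 ng/ml libraries, and 0 to 19 over single libraries (19 without WT6 at 5 ng/ml, 0 without WT10 at 25 ng/ml). The falling count was 2 with trends removed.

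For the wild type slopes minus MUT3, with 9 above 0, the count was 3 with no filter, 2 with no weights, 22 by DESeq2, 1 on dose in ng/ml, 0 for any doxycycline, on log2 RBM47 and without the 25 ng/ml libraries, 5 without WT6 at 5 and 25 ng/ml, and 0 to 57 over single libraries, with 1 below 0 once trends were removed. For WT6 minus WT10, with 8 above 0, it was 1 with no filter or no weights, 26 by DESeq2 with 1 below 0, 0 on dose in ng/ml, for any doxycycline, on log2 RBM47, without the 25 ng/ml libraries and without WT6 at 5 and 25 ng/ml, and 0 to 57 over single libraries, with 0 to 1 below 0 there and 1 with trends removed.

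For the untreated level of WT10 minus MUT3, with 0 higher and 19 lower, trend removal gave 3 and 36 and leaving out WT6 at 5 and 25 ng/ml 2 and 57. The lower count was 0 for any doxycycline and 10 without the 25 ng/ml libraries. Single libraries gave 0 to 2 higher and 12 to 47 lower (47 without WT6 at 5 ng/ml, 12 without MUT3 untreated or at 25 ng/ml). For WT6 against the other clones, with 16 higher and 7 lower, the higher count was 46 with trends removed, 34 on dose in ng/ml, 5 for any doxycycline, 9 without the 25 ng/ml libraries and 37 without WT6 at 5 and 25 ng/ml. The lower count was 0 for any doxycycline and 13 without WT6 at 5 and 25 ng/ml, and single libraries gave 11 to 24 higher and 5 to 16 lower (16 without WT6 at 5 ng/ml, 12 without WT6 at 25 ng/ml).

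Trend removal turned the WT6 slope of ATP5D to -0.0219 and of SDHB to -0.0047, and those of ATP5B, SDHC and UQCRC2, not called before, to -0.0551, -0.0754 and -0.0463, called as falling. Without WT6 at 5 and 25 ng/ml the WT6 slope turned for ATP5D (-0.0657), ATP5G1 (-0.0160), ATP5G2 (-0.0748), ATP5J2 (-0.0885), COX4I1 (-0.0634), COX5A (-0.0416), COX6A1 (-0.0002), COX6B1 (-0.0219), COX7A2 (-0.0210), COX8A (-0.0347), NDUFA2 (-0.0502), NDUFB9 (-0.0483), NDUFS3 (-0.0008), NDUFS6 (-0.0519), NDUFV1 (-0.0408), NDUFV3 (-0.0009), SDHB (-0.0531), UQCRC1 (-0.0326), UQCRH (-0.0024) and UQCRHL (-0.0496), and the difference WT6 minus WT10 for ATP5D (-0.0325), ATP5G2 (-0.0356), NDUFA2 (-0.0580) and UQCRC1 (-0.0207).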

Other observations

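The rows matched by the rule that encode no subunit were measured too. Of the 6, 4 were tested and 3 rose in WT6 cells. ATP5S, a coupling factor, measured 333, 324, 339, 354 and 399.9 in WT6 cells. In MUT3 cells it measured 190.1, 206, 184, 166 and 129, and no tested gene was called there. SDHAF1 and SDHAF2, which build complex II, measured 313, 352, 315, 493 and 570.5 and 1098, 1089, 1061, 1520.5 and 1487 in WT6 cells, so both were highest at 5 and 25 ng/ml. Among the pseudogene rows left out, SDHAP3 ran from 34.1 to 69.8 in WT6 cells and from 6.49 to 13.5 in WT10 and MUT3 cells, with no overlap.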
